A study of Mus musculus with 6 samples.

Results

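The transcription factors known as the heptad (Tal1, Lyl1, Lmo2, Gata2, Runx1, Erg and Fli1) were examined together with Etv6, Ldb1 and Myb, factors that act with them in blood stem and progenitor cells. Members were the rows of the deposited gene table that carry these names, and all 10 were found among its 55487 genes. RNA was sequenced from LSKs, the Sca-1+ c-Kit+ cells of bone marrow that lack lineage markers and include stem cells and multipotent progenitors, of irradiated mice. There were 3 libraries from Tespa1+/+ (wild type) mice and 3 from Tespa1-/- mice, which carry a germline knockout of Tespa1 on a C57BL/6 background. No library came from mice that had not been irradiated. The study's methods describe male, young adult mice and a sublethal total body dose, and whether a library came from 1 mouse or from a pool was not given in the sources used here, so the p-values measure only the spread between these libraries, which may be technical. The values therefore compare genotypes after irradiation and do not show what irradiation itself changed.

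The heptad factors bind together at many regulatory elements of blood stem cells, their own among them. TAL1 and LYL1 are basic helix-loop-helix proteins that pair with E proteins, and LMO2 and LDB1 are adaptors without DNA contacts of their own that bridge this dimer to GATA2. RUNX1 binds DNA with CBFB, while ERG, FLI1 and ETV6 carry an ETS domain, and MYB is needed by definitive progenitors. ERG and GATA2 are known as factors that stem cells need for self-renewal, and many of the genes examined were first found at leukemia breakpoints.

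In Tespa1-/- LSKs, Erg, Gata2 and Tal1 were lower by over 1.5 times, Etv6 and Runx1 by less, and Myb and Ldb1 only slightly. Lyl1, the closest relative of Tal1, was higher, and Fli1, the closest relative of Erg, and Lmo2 were not distinguished between the genotypes. Corrections for gene length left Erg, Gata2, Tal1 and Etv6 lower, ended the difference of Runx1, turned that of Myb, ended that of Lyl1 under 1 of the 2 lengths, and ended that of Ldb1 under 1 and turned it under the other. At an edgeR adjusted p under 0.05, 7 of 10 members were lower and 1 was higher. Of the 15332 genes tested, 63.3% passed, 31.8% as lower and 31.5% as higher. With the further condition of a fold over 1.5, 3 of 10 members were lower (19.2% of all genes tested) and 0 were higher (14.0%). Over all genes, 2951 were thus called lower and 2148 higher, and 3516 and 1491 when libraries were scaled by total counts alone. The median log2 fold change of the 10 members was -0.36, and that of all genes tested was 0.00. All 10 passed the filter on low counts. Because LSKs are a mixture, a lower level may come from fewer cells that express a gene or from less RNA in each cell, and bulk RNA cannot tell these apart.

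The total count of a library ranged from 12856630 to 30576981, so that the least counted member value still rested on 522 counts. In CPM (the count over the TMM-scaled library total), Tespa1 itself was at 34.5, 32.7 and 36.0 in Tespa1+/+ libraries, against 15.3, 14.3 and 14.2 where it was knocked out, so that it was lower but not absent. Levels were summed over 6 LSK genes (Kit, Ly6a, Cd34, Flt3, Slamf1 and Procr). The sum was between 1117 and 1155 CPM in Tespa1+/+ and between 619 and 639 CPM in Tespa1-/- libraries. Of the 6 genes, 5 were called lower, beside 19.2% of all genes tested. Kit, which encodes an antigen of the sort, was at 341, 335 and 322 CPM in Tespa1+/+ and at 177, 167 and 165 CPM in Tespa1-/- libraries.

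To show the members that were called lower beside the one that was higher, the 250 bases before the annotated 5′ end of each gene are printed, from RefSeq on GRCm38.p6 and in the direction of the gene. Capitals mark matches on either strand to any of 4 motifs. The E-box, bound by TAL1 and LYL1 with their partners, was searched as CANNTG. The motif of GATA proteins was searched as AGATAA and likewise as TGATAA. The motif of RUNX proteins was searched as TGTGGT and likewise as TGCGGT. The motif of ETS proteins was searched as AGGAAG and likewise as CGGAAG. The regions are chr16:95586594-95586843 (minus strand) for Erg, chr6:88193641-88193890 (plus) for Gata2, chr4:115056176-115056425 (plus) for Tal1 and chr8:84701207-84701456 (plus) for Lyl1.
Erg: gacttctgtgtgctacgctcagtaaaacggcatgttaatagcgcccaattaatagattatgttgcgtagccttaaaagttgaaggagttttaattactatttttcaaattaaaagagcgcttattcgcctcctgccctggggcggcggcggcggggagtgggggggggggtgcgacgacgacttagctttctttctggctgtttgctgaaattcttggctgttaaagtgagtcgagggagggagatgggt
Gata2: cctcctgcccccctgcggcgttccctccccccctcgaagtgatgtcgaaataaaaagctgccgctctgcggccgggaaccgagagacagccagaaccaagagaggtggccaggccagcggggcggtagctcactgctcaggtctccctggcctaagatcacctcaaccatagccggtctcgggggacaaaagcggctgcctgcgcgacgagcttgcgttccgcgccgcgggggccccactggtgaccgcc
Tal1: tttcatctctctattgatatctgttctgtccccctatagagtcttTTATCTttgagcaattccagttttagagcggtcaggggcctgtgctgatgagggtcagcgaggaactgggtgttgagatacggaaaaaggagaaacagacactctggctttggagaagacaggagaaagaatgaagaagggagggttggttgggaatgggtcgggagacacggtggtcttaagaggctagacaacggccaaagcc
Lyl1: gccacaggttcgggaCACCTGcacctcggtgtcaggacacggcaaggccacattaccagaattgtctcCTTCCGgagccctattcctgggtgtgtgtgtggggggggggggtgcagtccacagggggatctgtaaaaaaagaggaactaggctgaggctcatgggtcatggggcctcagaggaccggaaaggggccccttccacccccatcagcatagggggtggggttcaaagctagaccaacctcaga

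No match lay in these Erg and Gata2 windows. RefSeq lists 2 more start sites for Erg inside the gene, and the window before 1 of them held 2 E-box, 1 GATA and 1 ETS match. The Tal1 window held 1 GATA match, which began 205 bases before the start site, and the Lyl1 window held 1 E-box and 1 ETS match. Among 32817 promoter windows of this length, 66.2% held an E-box, 16.6% a GATA, 18.6% a RUNX and 39.2% an ETS match. RefSeq entries were matched for 8 of 10 members and not for Lmo2 and Fli1. Which start sites LSKs used was not analysed here, and distal enhancers lie outside these windows.

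Tal1 was lower and Lyl1 higher, although the rise of Lyl1 did not pass the test with a correction on union exon length (log2 fold change 0.11, edgeR adjusted p 0.0737). Tal1 (ENSMUSG00000028717, GRCm38 chromosome 4, 115056426 to 115071755) was at 69.4, 67.9 and 68.1 CPM in Tespa1+/+ and at 33.8, 45.9 and 45.1 CPM in Tespa1-/- libraries. All Tespa1-/- values lay below the Tespa1+/+ values, and Tespa1-/- replicate 1 was the lowest. Its log2 fold change was -0.72 ± 0.11 SE (adjusted p 0.00105 by edgeR) and -0.58 without that library. Lyl1 (ENSMUSG00000034041, chromosome 8, 84701449 to 84704940) was at 120, 130.5 and 133.4 CPM in Tespa1+/+ and at 162, 163 and 165 CPM in Tespa1-/- libraries, with no overlap. It was 1.28-fold higher (log2 fold change 0.35 ± 0.05 SE, adjusted p 4.1e-04 by edgeR). Exons of Lyl1 share 4 bases with those of Nfix on the opposite strand.

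A ratio of both genes within a library does not depend on how libraries are scaled. In FPKM, the deposited values per gene length and library total, Tal1 made up 20.4%, 18.7% and 18.4% of the sum of Tal1 and Lyl1 in Tespa1+/+ libraries. The shares in Tespa1-/- libraries were 8.46%, 11.1% and 10.8%. The ratio of Tal1 to Lyl1 was thus 2.12-fold lower in Tespa1-/- LSKs. This ratio is not free of the fall of fold changes with gene length, described further below. Tal1 has 4379 bases of union exons and Lyl1 1800. With the union exon length correction, the log2 fold changes were -0.66 for Tal1 and 0.11 for Lyl1, against -0.72 and 0.35 without it. With the implied length they were -0.47 and 0.28, so the genes lay closer together under either correction. With 3 libraries in each group, the two-sided exact permutation test of the share gave p = 0.1, the smallest value it can give.

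Lmo2, which encodes a LIM-only adaptor (ENSMUSG00000032698, chromosome 2, 103957986 to 103981878), was at 193.5, 184 and 224 CPM in Tespa1+/+ and at 148, 207 and 205 CPM in Tespa1-/- libraries, so that the groups overlapped and Tespa1-/- replicate 1 was again the lowest. Its log2 fold change was -0.10 ± 0.14 SE (adjusted p 0.529 by edgeR), and the range of 2 SE on either side ran from -0.38 to 0.17, which is wide enough to hold a moderate fall. Without that library it was 0.04. Ldb1 (ENSMUSG00000025223, chromosome 19, 46031570 to 46045214), which makes LMO2 complexes dimerize, was at 202, 214 and 208 CPM in Tespa1+/+ and at 188, 196.5 and 195 CPM in Tespa1-/- libraries. The groups did not overlap, but the fall was small (log2 fold change -0.11 ± 0.04 SE, adjusted p 0.0316 by edgeR), and with single libraries left out it passed the test in 1 fit of 6. Of the union of Ldb1 exons, 3.84% overlaps exons of Pprc1 on the opposite strand.

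Gata2 (ENSMUSG00000015053, chromosome 6, 88193891 to 88207032) was the most variable member. It was at 71.0, 107 and 78.9 CPM in Tespa1+/+ and at 48.4, 36.0 and 53.4 CPM in Tespa1-/- libraries, with Tespa1+/+ replicate 2 the highest and Tespa1-/- replicate 2 the lowest. The groups did not overlap, and Gata2 was 1.87-fold lower (log2 fold change -0.91 ± 0.19 SE, adjusted p 0.00460 by edgeR). The log2 fold change was -0.70 without Tespa1+/+ replicate 2 and -0.75 without Tespa1-/- replicate 2. The coefficient of variation was 22.2% in Tespa1+/+ and 19.6% in Tespa1-/- libraries, where counting alone gives 2.48% and 3.92%.

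Runx1 (ENSMUSG00000022952, chromosome 16, 92601466 to 92826149) was at 117, 120 and 131 CPM in Tespa1+/+ and at 76.9, 82.5 and 95.8 CPM in Tespa1-/- libraries. Every Tespa1-/- library lay below every Tespa1+/+ library, and Runx1 was 1.44-fold lower (log2 fold change -0.53 ± 0.09 SE, adjusted p 0.00131 by edgeR). This fall is close to that of other long genes, which is described further below.

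Among the ETS members, Erg fell most. Erg (ENSMUSG00000040732, chromosome 16, 95359169 to 95586593) was at 91.6, 103 and 91.0 CPM in Tespa1+/+ and at 41.0, 46.3 and 49.0 CPM in Tespa1-/- libraries, with a wide gap between the groups. It was 2.10-fold lower (log2 fold change -1.07 ± 0.08 SE, adjusted p 2.7e-05 by edgeR). Fli1 (ENSMUSG00000016087, chromosome 9, 32422204 to 32542861) was at 126, 121 and 122 CPM in Tespa1+/+ and at 130, 126 and 120 CPM in Tespa1-/- libraries. The groups overlapped, and its log2 fold change of 0.03 ± 0.04 SE (adjusted p 0.551 by edgeR) had a range of 2 SE from -0.05 to 0.11, which leaves out a change as large as that of Erg. Its sign was negative when libraries were scaled by total counts (-0.07).

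Etv6 (ENSMUSG00000030199, chromosome 6, 134035700 to 134270158), a repressor that adult stem cells require, was at 388, 387 and 371 CPM in Tespa1+/+ and at 259, 257 and 281 CPM in Tespa1-/- libraries. It was 1.44-fold lower (log2 fold change -0.52 ± 0.04 SE, adjusted p 3.7e-05 by edgeR), without overlap. Within libraries, Erg made up 21.8%, 24.5% and 22.3% of the summed FPKM of Erg and Fli1 in Tespa1+/+ and 10.8%, 12.3% and 13.5% in Tespa1-/- LSKs. The ratio of Erg to Fli1 was 2.14-fold lower, and the two-sided exact permutation test of the share again gave p = 0.1, its smallest value. As a share of counts, Erg was at 42.1%, 45.9% and 42.7% in Tespa1+/+ and at 23.95%, 26.8% and 28.9% in Tespa1-/- libraries. The union exons of both genes are of almost equal length, so this share also compares their levels per base of union exons. The FPKM shares rest instead on lengths of 9096 bases for Erg and 3493 for Fli1. With a correction on lengths of this kind, given further below, the log2 fold change was -0.87 for Erg and -0.10 for Fli1. With the union exon length they were -1.11 and -0.0094.

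**Figure D1:**
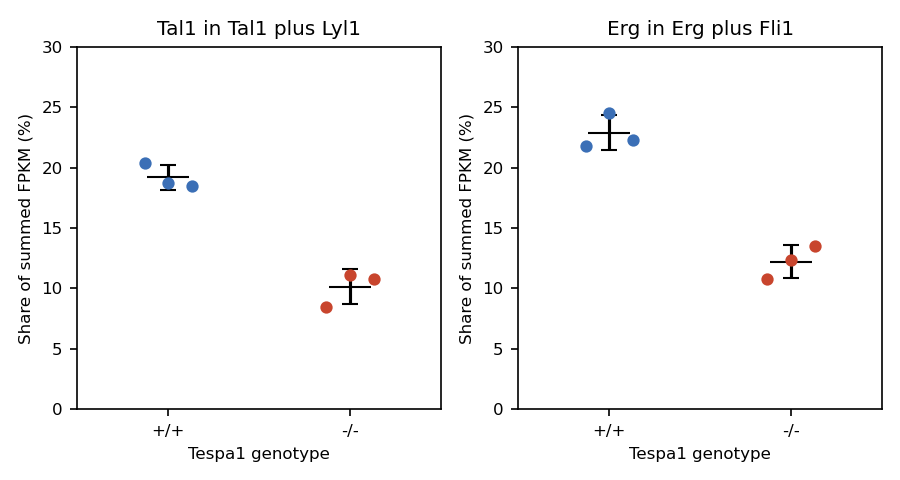
Share of Tal1 in the summed FPKM of Tal1 and Lyl1 (left) and of Erg in that of Erg and Fli1 (right), in percent, by Tespa1 genotype. Points are libraries, the horizontal line is the mean and the bar is the SD of 3 libraries. The 3 Tespa1-/- libraries lie below the 3 Tespa1+/+ libraries in both pairs, between 8.46% and 11.1% on the left and between 10.8% and 13.5% on the right.

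Myb (ENSMUSG00000019982, chromosome 10, 21124935 to 21160984) was the most counted member, at 713, 696 and 688 CPM in Tespa1+/+ and at 604, 613 and 616 CPM in Tespa1-/- libraries. The small spread let a difference of 1.14 times pass the test (log2 fold change -0.19 ± 0.02 SE, adjusted p 3.3e-04 by edgeR), and this direction turned under both length corrections given further below. Of the union of Myb exons, 6.26% overlaps the antisense gene Gm26577, which had at most 29 counts in a library. Over the 10 members, the groups did not overlap for 8, where this held for 69.1% of all genes tested.

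**Figure D2:**
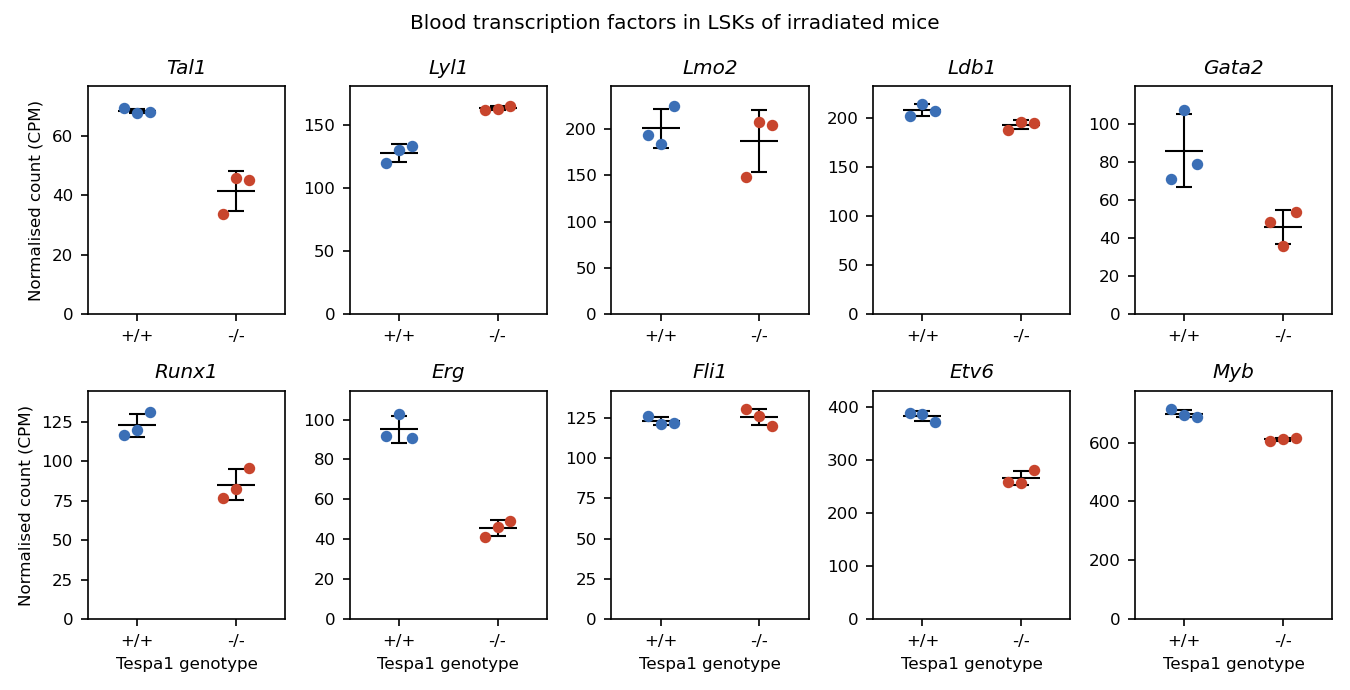
Normalised read count (CPM, linear axes from 0) of the 10 factors in 3 Tespa1+/+ (blue) and 3 Tespa1-/- (red) libraries. The horizontal line is the mean and the bar is the SD. Erg, Tal1 and Gata2 show the largest falls as a fold, Lyl1 is higher in all 3 Tespa1-/- libraries, and the groups overlap for Lmo2 and Fli1.

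Levels were next compared between members, per kilobase of annotated exons (CPM per kb over the union of exons). In Tespa1+/+ LSKs the order from the top was Lmo2 (92.6 ± 9.66, SD, n = 3), Myb (78.2 ± 1.47), Lyl1 (71.1 ± 3.91), Etv6 (63.9 ± 1.57), Ldb1 (45.2 ± 1.34), Fli1 (35.3 ± 0.709), Erg (27.5 ± 1.92), Gata2 (15.9 ± 3.53), Tal1 (15.6 ± 0.187) and Runx1 (10.2 ± 0.622). Gata2 and Tal1 lay within their spread. In Tespa1-/- LSKs, Lyl1 (90.7 ± 0.939, SD, n = 3) and Lmo2 (86.1 ± 15.4) headed the order and were not separated by their spread, and Myb (68.4 ± 0.665) came next. Erg (13.1 ± 1.16), Tal1 (9.50 ± 1.55), Gata2 (8.51 ± 1.66) and Runx1 (7.07 ± 0.808) were the 4 lowest. The order depends on the length used. The FPKM values of the authors rest on longer gene lengths for most members, 10113 bases against 4379 for Tal1 but 3493 against 3486 for Fli1, and place Myb (63.9 ± 1.27 FPKM, SD, n = 3) and not Lmo2 (30.8 ± 3.22 FPKM) at the top in Tespa1+/+ LSKs.

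Fold changes in this series fall with gene length, and the members range from 1800 bases of exons (Lyl1) to 12025 (Runx1), so each was set beside genes of like length. When the genes tested were cut into 10 classes of union exon length, the shortest class had a median log2 fold change of 0.54 and the longest one of -0.56. Lyl1 (0.35) belonged to a class with a median of 0.29, Runx1 (-0.53) to one with -0.56, Fli1 (0.03) to one with 0.07 and Ldb1 (-0.11) to one with -0.12. These 4 members lay near the median of their class. Erg shares the class of Fli1, with 3466 against 3486 bases of exons, and was at -1.07. Tal1 (-0.72) stood beside a median of -0.01, Gata2 (-0.91) beside -0.12 and Etv6 (-0.52) beside -0.23, and these 4 members lay below it. Myb (-0.19) lay above the median of its class (-0.35), and Lmo2 (-0.10) below that of its own (0.29).

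**Figure D3:**
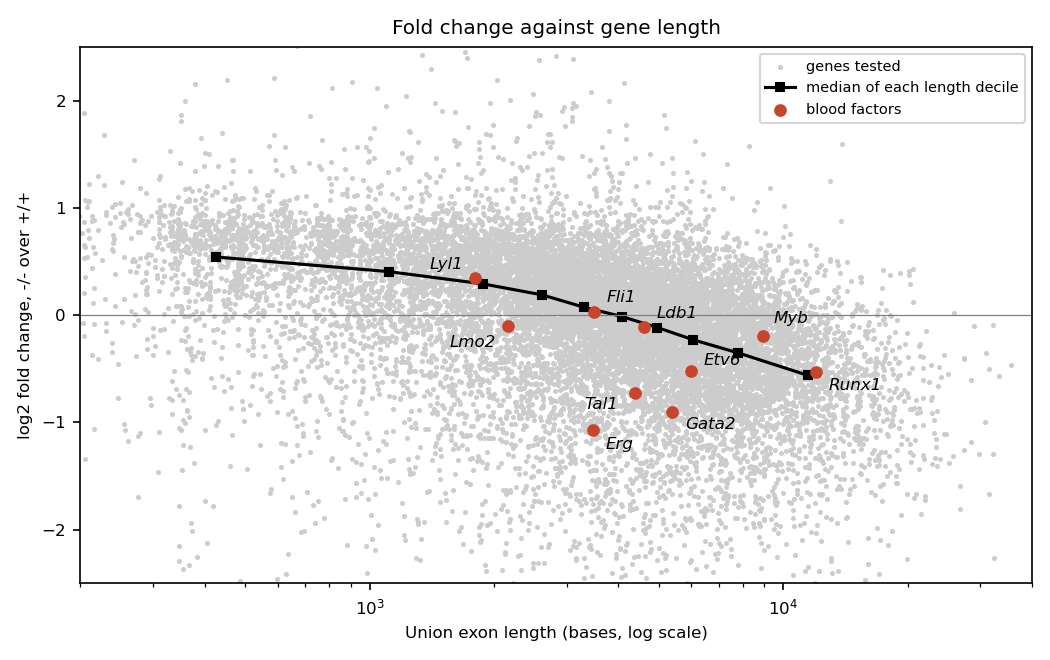
Log2 fold change (Tespa1-/- over Tespa1+/+) against union exon length (log axis) for the genes tested (grey), with the 10 factors in red and the median of each length class as black squares. Lyl1, Fli1, Ldb1 and Runx1 lie near the line of medians, whereas Erg, Tal1, Gata2 and Etv6 lie below it; a few genes beyond the axis limits are not drawn.

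The fit was repeated with an offset for length. With the union exon length, Erg (-1.11, edgeR adjusted p 3.9e-05), Gata2 (-0.74, 0.0128), Tal1 (-0.66, 0.00210) and Etv6 (-0.31, 7.0e-04) stayed lower. Runx1 was no longer distinguished (0.03, edgeR adjusted p 0.823), nor were Lyl1 (0.11, 0.0737) and Ldb1 (-0.02, 0.631). Myb turned higher (0.21, edgeR adjusted p 3.2e-04), and Lmo2 was at -0.30 (0.0956), further below 0 than without the correction but still not past the test. With the length implied by the authors' FPKM, Erg (-0.87), Gata2 (-0.74), Tal1 (-0.47) and Etv6 (-0.25) again passed as lower, Lyl1 (0.28) and Myb (0.11) as higher, and so did Ldb1 (0.14). Thus 4 of 10 members were lower under either length, while the count of higher members was 1 with the union exon length and 3 with the implied length. At this threshold, 26.5% of all genes were lower and 30.4% higher with the union exon length, and 27.5% were lower and 31.4% higher with the implied length. With the fold condition added, 3 members (Erg, Gata2 and Tal1) were lower with the union exon length, where 15.3% of all genes were, and 2 (Erg and Gata2) with the implied length, where 15.9% were. No member was higher by this rule, beside 8.20% and 9.14% of all genes. Whether the length trend comes from the cells or from the libraries cannot be told apart here, since it separates the genotypes.

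**Figure D4:**
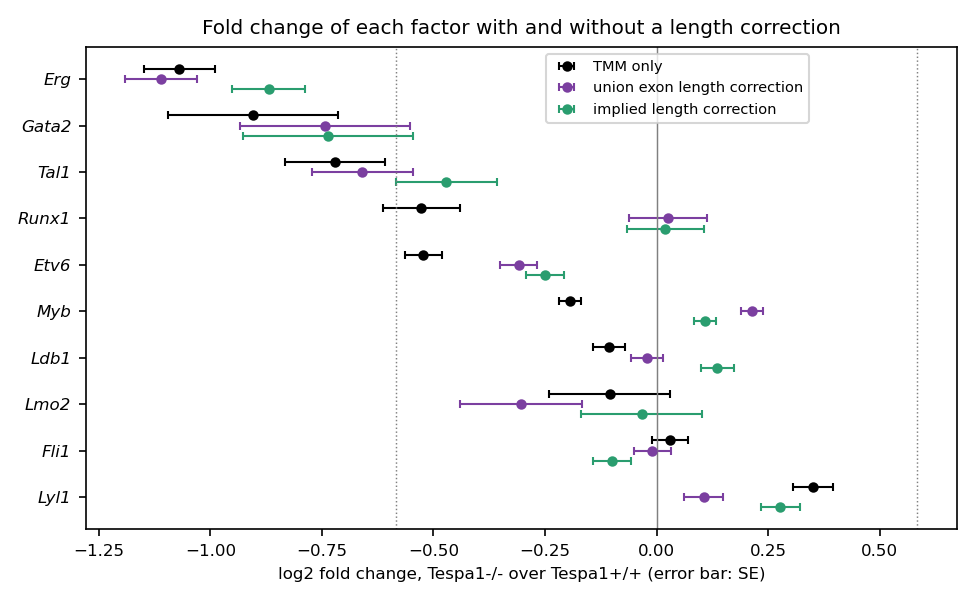
Log2 fold change of each factor with its SE from edgeR on all 6 libraries, without a length correction (black), with a correction on union exon length (purple) and with one on the length implied by FPKM (green). Dotted lines mark a fold of 1.5. Erg, Gata2, Tal1 and Etv6 stay below 0 in all 3 fits, and Runx1 moves from -0.53 to 0.03 and 0.02.

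Partners of the members were taken from 7 lists of 62 genes, of which 46 passed the filter on low counts. At an edgeR adjusted p under 0.05 and a fold over 1.5, 15 were lower and 3 were higher, beside 19.2% and 14.0% of all genes tested, and the median of the log2 fold changes was -0.43. Under the union exon length correction, 9 were lower and 1 was higher, beside 15.3% and 8.20% of all genes, at a median of -0.16. Of the 16 genes not tested, 7 (Lmo3, Gata4, Gata5, Runx1t1, Elf5, Ehf and Fev) had a count of 0 in every library, which allows at most 0.233 CPM in the shallowest one.

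Among the GATA and FOG proteins, all 3 genes tested were lower. Gata3, which acts in lymphoid cells and in cycling stem cells, was at 5.01 ± 0.302 CPM in Tespa1+/+ and at 1.30 ± 0.0103 CPM in Tespa1-/- LSKs (SD of 3 libraries a group, log2 fold change -1.94, adjusted p 1.8e-05 by edgeR). Gata1, the erythroid and megakaryocytic factor, fell by 0.84 on the log2 scale (edgeR adjusted p 5.4e-04), and its cofactor Zfpm1, also called FOG1, by 0.69 (edgeR adjusted p 0.0320). Zfpm1 was at 39.2, 19.6 and 36.7 CPM in Tespa1-/- libraries, so that 1 library lay far below the others. All 3 were also lower with either length correction.

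Partners of TAL1 and LYL1 did not move in 1 direction. Of 6 E and ID protein genes tested, 0 were called beyond a fold of 1.5, but the E proteins Tcf3 (-0.47), Tcf12 (-0.56) and Tcf4 (-0.41) passed the test as lower and Id1, an inhibitor of E proteins, as higher (0.39). With the union exon length correction, Tcf3 (-0.44) still passed the test, Tcf12 (0.11) and Id1 (0.05) did not, and Tcf4 turned to 0.54 (edgeR adjusted p 0.00256). Among 5 LMO, LDB and SSBP genes tested, 2 were higher and 0 were lower. Lmo1, a paralog of Lmo2, rose from 12.5 ± 1.65 to 24.5 ± 1.14 CPM (SD of 3 libraries a group, log2 fold change 0.97, adjusted p 1.8e-04 by edgeR), and Lmo4 rose from 56.4 ± 0.158 to 86.2 ± 9.74 CPM (SD of 3 libraries a group, log2 fold change 0.61, adjusted p 4.0e-04 by edgeR). With the corrections on union exon and implied length, Lmo1 (0.69 and 0.78) was still called higher. Lmo4 (0.58 and 0.68) passed the test with both but missed the fold of 1.5 with the union exon length. Ssbp4, a single-stranded DNA binding protein of the kind that stabilizes LDB1, was 0.44 higher and Ssbp2 0.48 lower on the log2 scale, but Ssbp2 did not pass the test with the union exon length correction (-0.13, edgeR adjusted p 0.0836).

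Of 5 RUNX, CBFB and ETO genes tested, 2 were lower and 0 were higher. Runx2 fell from 112 ± 7.71 to 57.6 ± 1.15 CPM (SD of 3 libraries a group, log2 fold change -0.96, adjusted p 8.5e-06 by edgeR), and Cbfa2t2 fell from 13.8 ± 2.17 to 6.89 ± 0.869 CPM (SD of 3 libraries a group, log2 fold change -0.99, adjusted p 8.2e-04 by edgeR). Cbfb, which encodes the shared DNA-binding partner of the RUNX proteins, was at 195, 191 and 197 CPM in Tespa1+/+ and at 203, 189 and 205 CPM in Tespa1-/- libraries (log2 fold change 0.04 ± 0.04 SE, adjusted p 0.474 by edgeR). Runx3 (-0.43) and Cbfa2t3 (-0.43), the ETO2 corepressor of TAL1 complexes, passed the test with a smaller fold. With the corrections on union exon and implied length, Runx2 (-0.56 and -0.44) still passed the test but not the fold of 1.5, and Cbfa2t3 (-0.05 and -0.11, edgeR adjusted p 0.804 and 0.580) did not pass the test.

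Of the other ETS genes, 15 of 23 were tested, and 7 were lower and 1 was higher. The largest falls were those of Etv5 (26.7 ± 2.06 to 7.27 ± 1.23 CPM, SD of 3 libraries a group, log2 fold change -1.87, adjusted p 2.1e-05 by edgeR) and Spib (log2 fold change -1.56, edgeR adjusted p 0.00974), the latter at a mean of only 0.922 CPM in Tespa1+/+ libraries. Spi1, which encodes PU.1, the myeloid and B-lymphoid ETS factor, was the only one higher (168 ± 7.59 to 268 ± 5.86 CPM, SD of 3 libraries a group, log2 fold change 0.67, adjusted p 1.0e-05 by edgeR), and was at 0.53 with either length correction. Both other MYB genes tested, Mybl1 and Mybl2, missed the threshold (edgeR adjusted p 0.106 and 0.0623). Among 10 coactivators and corepressors, 3 were lower, the acetyltransferases Ep300 (-1.10) and Crebbp (-0.73) among them, and 0 were higher. With the union exon length correction Ep300 was at -0.46 and Crebbp at -0.12.

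Genes with elements that these factors are known to bind were mostly lower. Of 16 such genes, 10 were lower and 1 was higher at a fold over 1.5 (median of the log2 fold changes -0.75), beside 19.2% and 14.0% of all genes tested. Under the union exon length correction, 9 were lower and 1 was higher (median -0.59), beside 15.3% and 8.20%. The list was written with earlier results of these data known. Tek, the angiopoietin receptor of stem and endothelial cells, fell from 8.70 ± 0.473 to 3.28 ± 0.104 CPM (SD of 3 libraries a group, log2 fold change -1.41, adjusted p 2.3e-05 by edgeR). Elane, which encodes neutrophil elastase, was the gene called higher, from 1290 ± 77.3 to 2573 ± 207 CPM (SD of 3 libraries a group, log2 fold change 1.0, adjusted p 1.6e-05 by edgeR). Mpo also passed the test as higher, with a smaller fold (log2 fold change 0.48, adjusted p 5.0e-06 by edgeR). Kit, Cd34 and Flt3 of this list also serve here as LSK markers, Mpo and Elane as neutrophil markers and Pf4 and Itga2b as megakaryocyte markers.

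**Figure D5:**
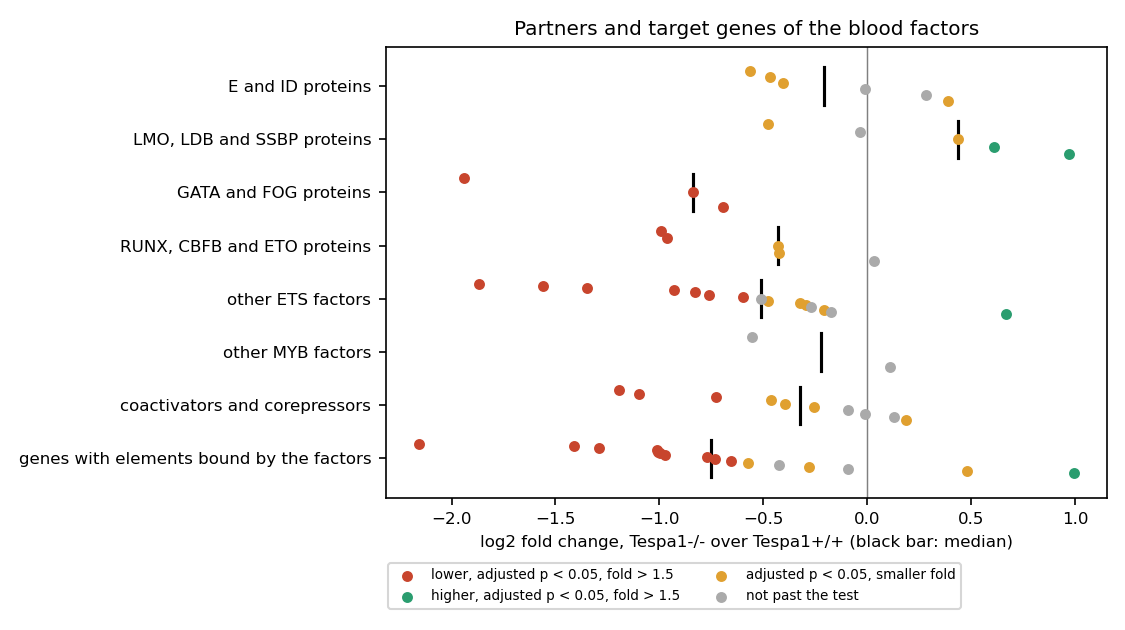
Log2 fold change (Tespa1-/- over Tespa1+/+, edgeR without a length correction) of the genes tested in 7 partner lists and in the list of target genes, 1 point a gene, with the median as a black bar. All 3 GATA and FOG genes lie below 0, the LMO, LDB and SSBP genes have a median of 0.44, and the target genes one of -0.75.

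Summed levels of markers of other cells also differed between the genotypes, except for the mast cell and basophil genes, where the groups overlapped. Over all genes tested, 19.2% were called lower and 14.0% higher. The summed level of 8 neutrophil genes was between 8485 and 9109 CPM in Tespa1+/+ and between 13306 and 13705 CPM in Tespa1-/- libraries. Of the 8, 7 were called higher. Mpo and Elane made up most of this sum in both genotypes. Mpo, which was not called (log2 fold change 0.48), was at 7260, 7734 and 7576 CPM in Tespa1+/+ libraries. In Tespa1-/- libraries Mpo was at 10473, 10488 and 10543 CPM. Elane had a mean of 1290 CPM in Tespa1+/+ and of 2573 CPM in Tespa1-/- libraries. The sum therefore says little about the neutrophil genes other than these. For 5 endothelial genes the summed level was between 164 and 167 CPM against between 89.9 and 96.2 CPM, and 4 were called lower. For 6 megakaryocyte genes it was between 106 and 113 CPM against between 66.6 and 71.2 CPM (2 lower, Ppbp under 1 CPM throughout), and for 7 erythroid genes between 27.2 and 27.6 CPM against between 43.4 and 46.8 CPM (2 lower, 2 higher, Alas2 under 1 CPM). For 5 mast cell and basophil genes it was between 39.4 and 42.2 CPM against between 38.6 and 46.6 CPM (2 lower). For 5 B cell genes it was between 40.0 and 44.3 CPM against between 32.4 and 36.0 CPM (3 lower, Ms4a1 under 1 CPM), and for 5 T cell genes between 3.17 and 3.36 CPM against between 1.37 and 1.58 CPM, with Cd3e, Cd3d, Cd3g and Cd4 under 1 CPM in every library. These marker sums and calls carry no correction for gene length. The part of these cells in the values of the members was not tested.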

How the data were processed

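Poly-A RNA of 6 LSK samples was made into stranded paired-end libraries. The authors deposited 1 table that holds, for each sample, raw counts (not normalised) and FPKM values, which are the count divided by the total and by 1 length per gene. The submitters' processing notes name CASAVA 1.8, HISAT2, StringTie, edgeR and GRCm38, without roles. The counting tool and whether it used strand were not given in the sources used here, so overlapping genes on opposite strands may share reads. Of 55487 genes, 55227 were found in GENCODE M21 (GRCm38), which gave the union exon length.

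Groups and replicate numbers came from the sample titles. The filter on low counts was filterByExpr and library scaling used TMM. Genotypes were compared by the quasi-likelihood F-test of edgeR 4.0.16 (R 4.3.3) in 1 fit of the 6 samples without covariates, and p-values were adjusted by the Benjamini-Hochberg procedure across 15332 genes. A call required both an adjusted p below 0.05 and a fold beyond 1.5. SE is the log2 fold change over the root of its F statistic. Shares within a library were tested with SciPy 1.17.1. In a length correction, the deviation of each library from the mean log2 CPM was fitted by loess (span 0.5) on log2 length and used as an offset. The alternatives were RLE factors, total counts, 2 other filters, DESeq2 1.42.0, a block for replicate number, fits without 1 library, limma-trend 3.58.1 on log2(FPKM + 1) and log2(FPKM + 0.1), and both length corrections. Shares per base of union exons were added after seeing the data. The scale of log2(FPKM + pseudocount) understates changes of low genes.

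Members, gene lists and tests were chosen with earlier results of these data known. The lists were written from general knowledge. Named in the text are the members, Tespa1, the 2 largest rises and falls among called genes of each list, and genes of lists with 7 or fewer genes; Spi1, Cd34, Flt3, Kit, Mpo, Pf4 and Itga2b are named as list or marker genes, and Nfix, Pprc1, Nfe2, Elk4, Ets1 and Crebbp after their values were seen. Some genes that this rule names are not reported here.

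Within groups, the median chi-square per gene between libraries was from 0.829 to 1.24, where counting noise gives 0.455, so no library was a copy of another. A count of 0 allows 3 counts. Such limits cover counting error only. On simulated counts with 200 changed genes, edgeR recovered 98% of genes changed 2-fold with 4 false calls among 15080 genes. With a simulated length trend it made 1897 false calls among 15056 genes, and 7 with the length correction. That trend was built on the same union exon length that the correction used, and all genes were drawn with the same spread. The simulation therefore checks the code and cannot show how well either length correction serves these data.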

Additional observations from a re-analysis of the deposited data

How the results depend on the processing

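Erg, Gata2, Tal1 and Etv6 kept their direction and an adjusted p under 0.05 in 16 of 16 alternatives, with log2 fold changes from -1.17 to -0.87, -1.02 to -0.70, -0.82 to -0.47 and -0.62 to -0.25, and so did Tespa1 (-1.33 to -0.99). Where another member moved, the cause was not tested. Under the correction on union exon length, Runx1 was at 0.025 (adjusted p 0.823), Myb at 0.21 (3.2e-04), Lyl1 at 0.11 (0.0737), Ldb1 at -0.022 (0.631) and Fli1 at -0.0094 (0.865). Under that on the implied length, Runx1 was at 0.020 (0.860), Myb at 0.11 (0.00771), Ldb1 at 0.14 (0.0163) and Fli1 at -0.10 (0.0760). Fli1 was also at -0.0709 with total counts, at -0.0694 with limma-trend on log2(FPKM + 1) and at -0.0711 on log2(FPKM + 0.1), with adjusted p from 0.154 to 0.171. Ldb1 missed the threshold without the filter (-0.10, 0.146) and with DESeq2 (-0.11, 0.0856). Over the fits that left out a library, Ldb1 ranged from -0.13 to -0.076 with adjusted p from 0.0328 to 0.140, and passed only without Tespa1+/+ replicate 1. Lmo2 ranged there from -0.18 to 0.044, the last without Tespa1-/- replicate 1, and was at -0.30 (0.0956) with the union exon length. Total counts, which shift the median of all genes by -0.10, and limma-trend on log2(FPKM + 0.1) gave 5 members called lower in place of 3, as Runx1 and Etv6 passed a fold of 1.5. With the implied length there were 2, as Tal1 (-0.47) no longer passed that fold, and limma-trend on log2(FPKM + 1) gave 4. Leaving out single libraries gave between 2 and 4, with 2 without Tespa1-/- replicate 1, where Tal1 (-0.58) fell short of the fold.

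Over all genes, 1626 genes were called lower and 1070 higher by limma-trend at a pseudocount of 1, against 2951 and 2148. Higher genes numbered 1365 with the pseudocount of 0.1, 1402 with the implied and 1257 with the union exon length. With total counts, 1491 were higher and 3516 lower, a split with a smaller share of higher genes. Of the partners, 9 were lower and 1 higher with the union exon length.

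Same-numbered libraries of both genotypes did not deviate together (correlations -0.07, -0.08 and 0.01), so the numbers gave no pairing. In the fit with a replicate block, 2101 genes rose and 2871 fell, Erg was at -1.07 (adjusted p 2.9e-04), and no member changed its call. The shares of Tal1 and Erg were lower in Tespa1-/- LSKs on all 3 scales and when any 1 library was left out. Neither check could have turned out otherwise. The scales differ only by a fixed length for each gene, which leaves the change of the ratio the same. The shares of the groups did not overlap, so leaving out a library could not turn the direction.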

Other observations

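A few genes of the lists above differed strongly between libraries of 1 genotype, and these were picked after their values were seen. Nfe2, an erythroid and megakaryocytic factor, was at 91.7, 45.5 and 97.6 CPM in Tespa1+/+ and at 92.9, 94.4 and 30.6 CPM in Tespa1-/- libraries, so that 1 library of each genotype lay far below the others (log2 fold change -0.09 ± 0.45 SE, adjusted p 0.868 by edgeR). Elk4, an ETS factor of the serum response, was at 46.3, 97.9 and 96.4 CPM in Tespa1+/+ and at 60.2, 54.8 and 54.2 CPM in Tespa1-/- libraries. Ets1 was at 17.8 CPM in Tespa1+/+ replicate 1 and between 6.65 and 10.3 CPM in the other 5 libraries. Nfix, whose exons touch those of Lyl1, was counted 2054, 3313 and 1672 times in the Tespa1+/+ libraries against 287, 286 and 845 times in the others. Over all genes, the mean chi-square between libraries of a genotype was between 7.33 and 9.88, while its median was between 0.829 and 1.24. Counting noise gives a median of 0.455. The cause was not tested.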
